A study of Mus musculus with 96 samples.

Results

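Complement and coagulation factors are plasma proteins made largely by hepatocytes, and 44 of their genes were examined in mouse liver. A gene was followed through the probe sets annotated to its symbol alone, and through the brightest of them where there were several. In this way 41 of the 44 genes had a probe set, and all 41 were among the 14816 genes tested. C3, C4b and Cpb2 had no probe set that named them alone and are not analysed here. C5ar1, the receptor for the complement fragment C5a, was at or above its array's median in 9 of 96 arrays only.

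The study asked how the liver responds to calorie restriction and how that response differs between genetic backgrounds. Livers came from 96 male mice of the inbred strains DBA/2J, CBA/J, C57BL6/J, 129S1/SvImJ and C3H/HeJ and of B6C3F1/J, the offspring of C57BL6/J crossed with C3H/HeJ. In each strain 8 mice ate a purified control diet and 8 ate a diet with 25% fewer calories, both from 8 to 22 weeks of age. All mice had been housed alone on 84 kcal per week of the purified diet from 6 weeks of age. Each array held RNA of 1 mouse, from whole liver, so fewer cells of a type and less RNA per cell cannot be told apart. Fasting before tissue collection was not given in the sources used here.

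Complement is a cascade of proteases that is started by C1q on antibody, by mannose-binding lectins on microbial sugars, or by slow spontaneous turnover. The branches meet at C3 and end in a pore built from C5b, C6, C7, C8 and C9. Coagulation is a parallel cascade in which factors VII, IX, X and prothrombin lead to thrombin, which turns fibrinogen into fibrin, while antithrombin, protein C and protein S restrain it and plasmin dissolves the clot. Hepatocytes secrete nearly all of these proteins, but C1q comes from macrophages, which in liver are the Kupffer cells.

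Values are MAS5 signals on a log2 scale, given as the lowest, median and highest of the 8 mice of a group. A difference is restricted minus control on that scale with the SE of limma. A gene was called at an adjusted p (Benjamini-Hochberg over all genes tested) under 0.05. The arrays were not all alike. Array medians ran from 6.21 to 7.504 on the log2 scale in 94 mice, with 2 exceptions: B6C3F1/J control replicate 2 stood at 8.655, and replicate 6 of the restricted DBA/2J mice at 8.295. The latter also had a 3' minus 5' difference of 2.51 for Gapdh and 4.86 for actin, against averages of -0.29 and 0.78 in DBA/2J controls. In B6C3F1/J control replicate 2 these were 0.10 and 1.63. The part of RNA quality in the values of these 2 arrays was not tested. Where leaving out these 2 arrays ended a call named here, or moved a called value given here by over 1.5 times, the value without them is given too. Some counts under alternative analyses have no share of all genes beside them. A change in these genes cannot there be told from one in all genes. Restricted CBA/J mice had array medians that averaged 7.29, compared with 6.52 in CBA/J controls, a 3' minus 5' Gapdh difference of -0.03 against -0.40, and a mean level of 6 hepatocyte markers of 17.62 against 16.07. The hepatocyte markers lay between 15.57 and 16.78 in all other groups.

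Averaged over the 6 strains, 14 of the 41 genes were called, 9 higher and 5 lower on the restricted diet. That is 34.1% of them, against 27.6% of all genes tested (15.2% higher and 12.4% lower), so the share called lies close to the background. Their median difference was 0.05 against 0.07 for all genes. The lower genes were the mannose-binding lectin Mbl1, the pore components C8a, C8b and C9, and the protease C1s1. The higher genes were the clotting factors F7 and F10, the 3 fibrinogen chains Fga, Fgb and Fgg, the kininogen Kng1, the second mannose-binding lectin Mbl2, the anticoagulant Pros1 and the phospholipid-binding protein Apoh. Under quantile normalization 7 were higher and 10 lower. Without the 2 arrays of high median 15 were higher and 8 lower (18.7% and 15.1% of all genes), and all 14 kept their calls. Those added were Ahsg at 0.30 (adjusted p = 2.75e-06), Vtn at 0.28 (7.11e-06), Serpind1 at 0.15 (9.92e-05), Serpinc1 at 0.14 (0.0373), Cfi at 0.12 (0.00338) and F2 at 0.12 (0.0246), and, lower, Klkb1 at -0.18 (0.000338), C4bp at -0.12 (0.012) and F13b at -0.11 (0.0334).

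The calls fell into a pair of groups when CBA/J was left out. Mbl1, C8a, C8b, C9 and C1s1 stayed lower, and F7, F10, Mbl2 and Pros1 stayed higher, with an adjusted p under 0.05 and the same sign in all 12 alternative analyses. Fga, Fgb, Fgg, Kng1 and Apoh lost their calls without CBA/J. Fgb then stood at 0.20 (adjusted p = 0.0846), Kng1 at 0.16 (0.126) and Fga at 0.12 (0.391). Fgg was at 0.10 (0.487) and Apoh at -0.01 (0.952). With the arrays of high median left out as well, Fgb was called again, at 0.18 (adjusted p = 0.0156). Fga, Fgg, Kng1 and Apoh were not. With CBA/J kept, quantile normalization ended the calls of Fga (0.085, adjusted p = 0.0982) and Apoh (-0.04, 0.37). Centring on the 75th percentile ended that of Apoh (0.18, adjusted p = 0.0577).

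**Figure D1:**
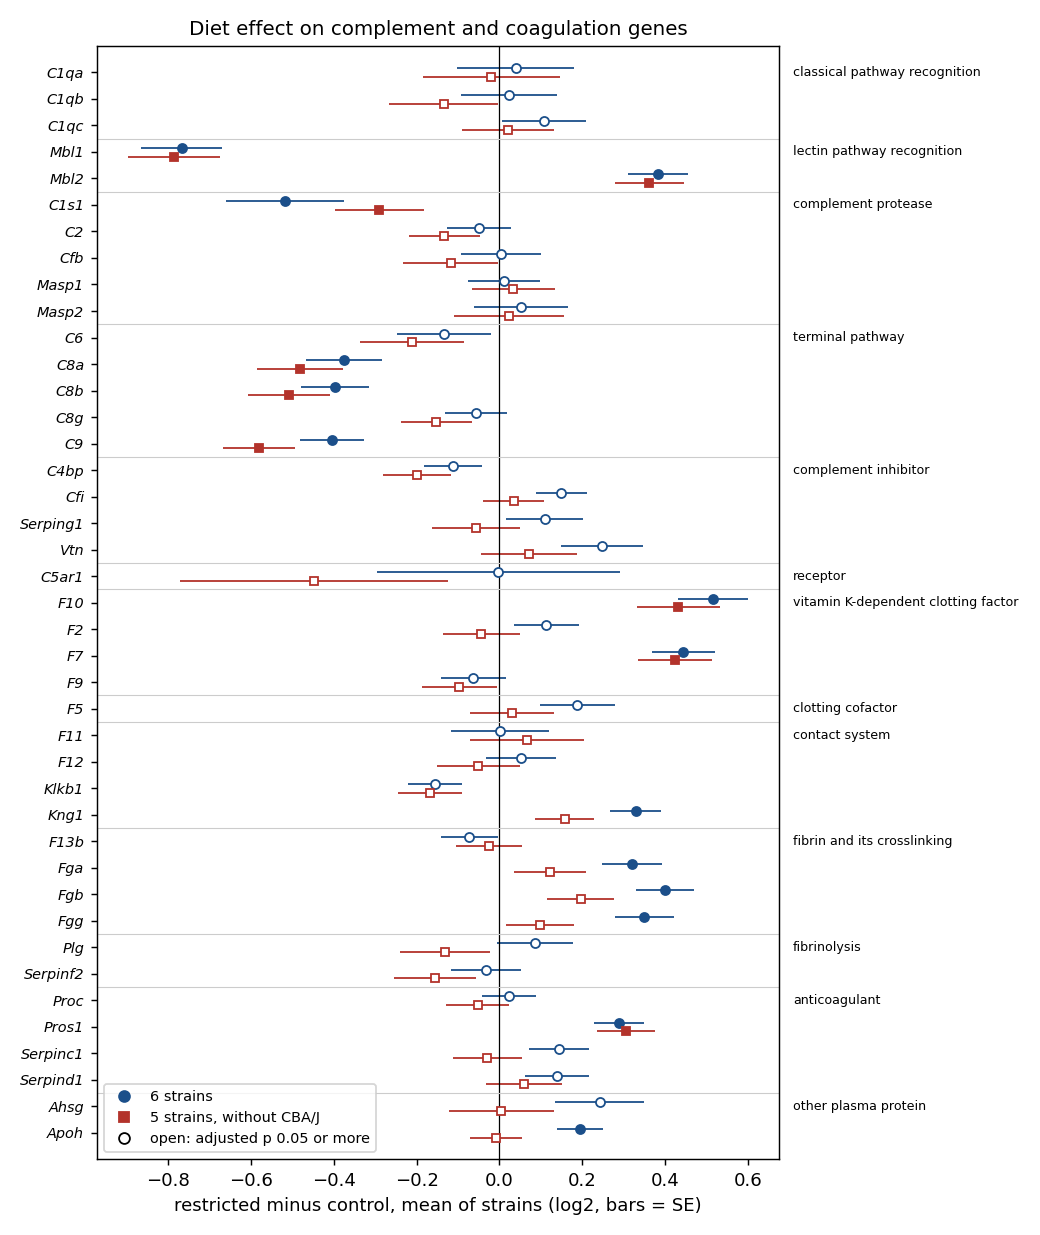
Difference between restricted and control livers (log2, horizontal axis, bars = SE) for the 41 genes ordered by role, as the mean of 6 strains (blue circles) and of 5 strains without CBA/J (red squares); filled symbols have an adjusted p under 0.05. Mbl1 lies farthest to the left at -0.77 with Mbl2 on the other side at 0.38, and the red squares of Fga, Fgg and Apoh lie nearer to 0 than the blue circles.

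The mannose-binding lectins, which recognise sugars on microbes and start the lectin pathway, went in opposite directions. Mbl1, which encodes mannose-binding lectin A, fell by 0.77 ± 0.10 on average (1.70-fold, adjusted p = 3.04e-10), and its difference was negative in all 6 strains. In 129S1/SvImJ its signals were 13.35, 13.67 and 14.82 on the control diet and 11.95, 12.52 and 13.22 on the restricted diet. No restricted mouse of that strain reached the lowest control. The difference there was -1.34 ± 0.24 (2.52-fold, adjusted p = 3.18e-05).

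Mbl1 was also called in C57BL6/J at -0.91 ± 0.24 (adjusted p = 0.0125), in DBA/2J at -0.81 ± 0.24 (0.0223) and in CBA/J at -0.68 ± 0.24 (0.0186). In C57BL6/J the control signals of 13.01, 13.94 and 14.42 overlapped the restricted ones of 12.63, 12.80 and 14.08. The restricted mouse at 14.08 lay above the rest, and the next highest, at 13.145, was also above the lowest control. In DBA/2J the control signals were 13.48, 14.43 and 15.14 and the restricted ones 12.99, 13.48 and 14.44, with most restricted mice low. In CBA/J they were 12.91, 13.43 and 14.45 against 12.59, 12.81 and 13.03. C3H/HeJ at -0.53 ± 0.24 (adjusted p = 0.39) and B6C3F1/J at -0.35 ± 0.24 (0.477) had the same sign and did not pass. Without control replicate 2 the cross was at -0.66 ± 0.22 (0.0575). The interaction test, which asks whether the diet difference varies between strains, did not call Mbl1. Centring each array on its 75th percentile ended the calls in C57BL6/J (adjusted p = 0.0924) and DBA/2J (0.0554). Adding the array median as a covariate ended those in DBA/2J (0.0758) and CBA/J (-0.22, 0.575).

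Mbl2, which encodes mannose-binding lectin C, rose by 0.38 ± 0.07 on average (1.30-fold, adjusted p = 1.14e-05), with a positive difference in all 6 strains. The strain values ran from 0.18 in C3H/HeJ to 0.52 in B6C3F1/J, where the value was 0.22 ± 0.13 (adjusted p = 0.433) without control replicate 2. CBA/J alone was called at 0.48 ± 0.18 (adjusted p = 0.0224), though its sign there turned under quantile normalization (-0.02, adjusted p = 0.928). Without the 2 arrays of high median DBA/2J was called too, at 0.44 ± 0.13 (adjusted p = 0.0203). In 129S1/SvImJ the control signals were 13.60, 13.84 and 14.60 and the restricted ones 14.05, 14.44 and 14.60, so the ranges overlapped. Within groups, after each group's mean was removed, the signals of both lectins nevertheless correlated positively over 96 arrays (Pearson r = 0.71, Spearman rho = 0.61, permutation adjusted p = 1.71e-05 over 12 pairs, the smallest that the resamples can give). Without the 2 arrays farthest from the median, r was 0.58.

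**Figure D2:**
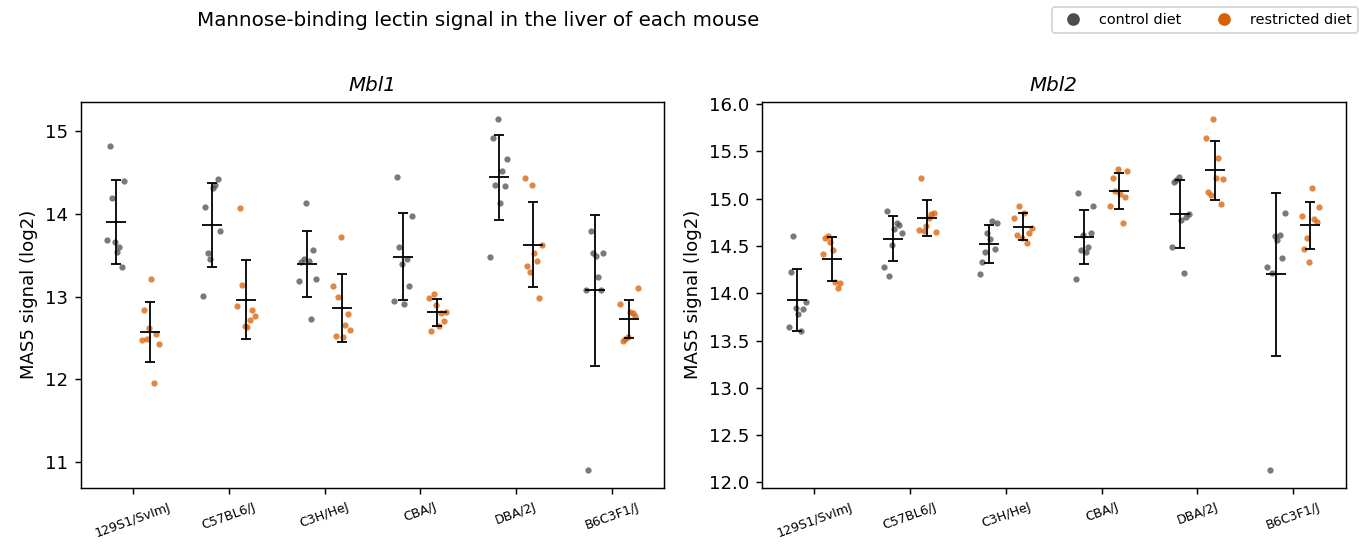
MAS5 signal (log2, vertical axis) of Mbl1 and Mbl2 in each mouse by strain and diet, with the mean and SD of the 8 mice. Mbl1 is lower and Mbl2 higher in the restricted mice of every strain by the group mean, and the lowest point of B6C3F1/J control is replicate 2.

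The MASP proteases that these lectins carry did not follow them. Masp1 at 0.01 and Masp2 at 0.05 were not called, and neither were C2 and Cfb, which supply the protease subunits of the C3 convertases. C1s1, a protease of the C1 complex, was lower by 0.52 ± 0.14 (1.43-fold, adjusted p = 0.00305). A few restricted mice were far below the rest. In CBA/J the restricted signals were 7.20, 12.42 and 13.19 against 13.27, 13.40 and 13.58 in controls, and in DBA/2J they were 9.47, 12.88 and 13.32 against 13.12, 13.39 and 13.67. The DBA/2J value of 9.47 came from the array of high median, without which the lowest restricted signal there was 12.30 (n = 7). Without CBA/J and the 2 arrays of high median the average difference of C1s1 was -0.26 (adjusted p = 2.96e-06). Its probe set is of a kind that can also detect closely related transcripts, and a paralogue exists.

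The terminal components C8a, C8b and C9, which assemble the pore of the membrane attack complex, were lower on the restricted diet in C57BL6/J and in DBA/2J. C9, the subunit that polymerises into the pore, was 13.29, 14.11 and 14.23 in C57BL6/J controls and 12.73, 13.03 and 13.23 in restricted mice. These groups did not overlap, and the difference was -1.01 ± 0.19 (2.02-fold, adjusted p = 0.000109). In DBA/2J it was 15.38, 15.61 and 15.98 in controls and 14.37, 14.77 and 15.46 in restricted mice. Those ranges touched only at their edges, and the difference was -0.86 ± 0.19 (1.82-fold, adjusted p = 0.00124). The overlap came from the array of high median alone, without which the highest restricted mouse was at 15.07.

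C8a and C8b encode the alpha and beta chains of C8, which anchors the growing pore in the membrane. In C57BL6/J, C8a was 13.93, 14.26 and 14.60 in controls and 13.17, 13.42 and 13.59 in restricted mice, a difference of -0.84 ± 0.22 (adjusted p = 0.0138) with no overlap. C8b there was 12.16, 12.45 and 13.01 against 11.30, 11.62 and 12.25, a difference of -0.85 ± 0.20 (adjusted p = 0.00422). In DBA/2J the differences were -0.83 ± 0.22 for C8a (adjusted p = 0.011) and -0.92 ± 0.20 for C8b (0.00132). Without the array of high median they were -0.72 (adjusted p = 0.00022) and -0.67 (0.00024), and that of C9 was -0.96 (5.65e-06). In C57BL6/J the calls of C8a (adjusted p = 0.0995) and C8b (0.0618) ended with 75th percentile centring.

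Averaged over strains, C9 fell by 0.41 ± 0.08 (1.32-fold, adjusted p = 1.56e-05), C8b fell by 0.40 ± 0.08 (1.32-fold, 7.97e-05) and C8a fell by 0.38 ± 0.09 (1.30-fold, 0.000754). CBA/J went the other way for C9, at 0.48 ± 0.19 (adjusted p = 0.0357), but this value was -0.03 (0.904) under quantile normalization. The interaction of strain and diet was called for C9 (adjusted p = 0.000107), C8b (0.00933) and C8a (0.0202), and without CBA/J none of these passed (0.283, 0.309 and 0.31). With the arrays of high median left out as well, the interaction of C8a was called (0.00202). Those of C8b (0.137) and C9 (0.0896) were not. Under quantile normalization, with CBA/J kept, C9 (0.000332), C8b (0.00403) and C8a (0.00391) all kept a called interaction. With 75th percentile centring C9 kept it (0.00409), and C8b (0.0864) and C8a (0.138) did not. C6, another pore component, fell in C57BL6/J by 0.92 ± 0.28 (adjusted p = 0.0384) and was not called on average. That call ended under quantile normalization (0.0546) and 75th percentile centring (0.0791). C8g, the lipocalin-like gamma chain of C8, was not called on average or in any strain. It was called lower on average in 2 of the 12 alternatives. These were quantile normalization (-0.22, adjusted p = 2.89e-07) and leaving out CBA/J and the 2 arrays of high median (-0.195, 0.0156).

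**Figure D3:**
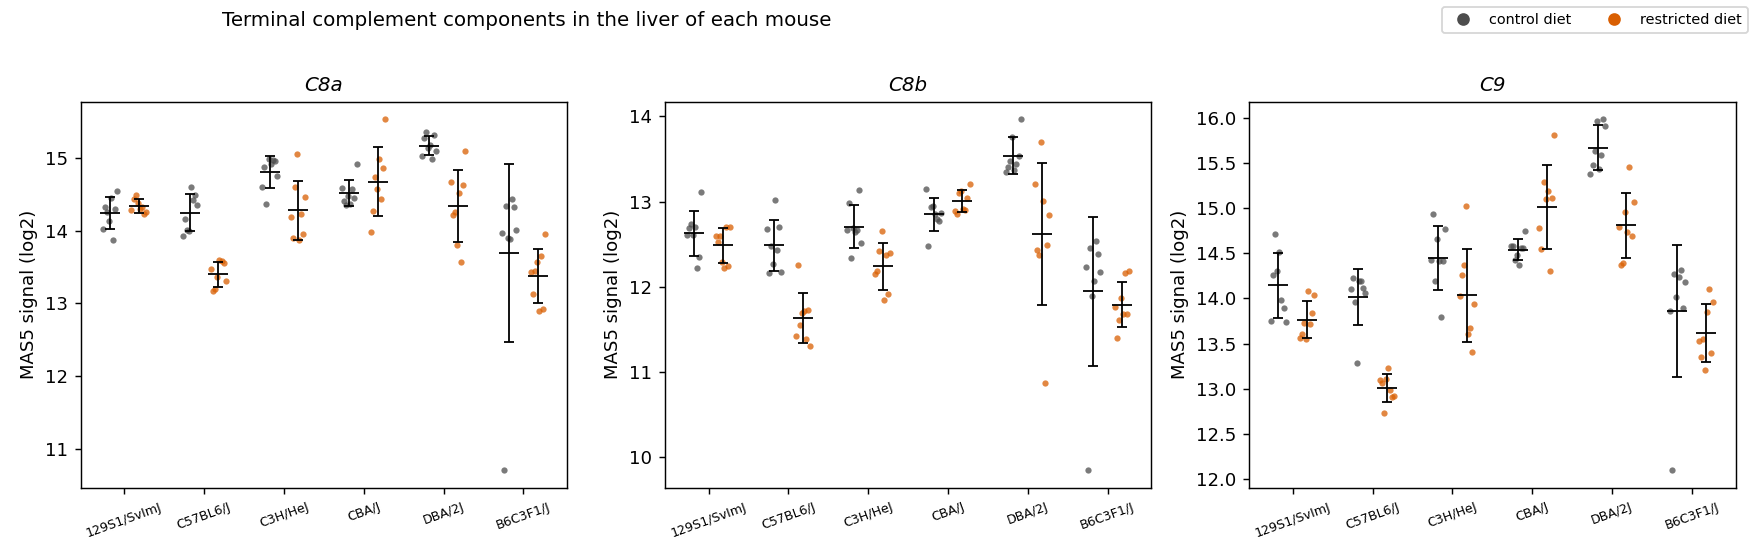
MAS5 signal (log2, vertical axis) of C8a, C8b and C9 in each mouse by strain and diet, with the mean and SD of the 8 mice. DBA/2J controls are the highest control group for all 3 genes, restricted C57BL6/J and DBA/2J mice lie below their controls, and 1 B6C3F1/J control, replicate 2, lies far below its group.

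The C8a and C8b genes are neighbours on chromosome 4 with no protein-coding gene between them, while C9 lies on chromosome 15. Over 96 arrays the within-group correlation of C8a with C8b was r = 0.68 (rho = 0.54, permutation adjusted p = 3e-05), and 0.42 without the 2 farthest arrays. That of C8a with C8g was 0.53 (rho = 0.24, adjusted p = 0.0228) and fell to 0.16 without the 2 farthest arrays. After 75th percentile centring it was 0.70 (rho = 0.425, adjusted p = 0.00018), and 0.36 without them. For C8b with C8g the uncentred r was 0.55 (rho = 0.33, adjusted p = 0.000827), and 0.29 without the 2 farthest arrays. The sequences are shown because the 3 genes moved together in the same strains. They are the 250 bases before the start used in a RefSeq promoter table of GRCm38.p6, on the gene's strand, with motif matches in capitals. The C8a window overlaps the gene as the RefSeq gene table bounds it by 89 bases, and the other windows printed end where their gene begins.
C8a (chr4:104876399-104876648, minus strand): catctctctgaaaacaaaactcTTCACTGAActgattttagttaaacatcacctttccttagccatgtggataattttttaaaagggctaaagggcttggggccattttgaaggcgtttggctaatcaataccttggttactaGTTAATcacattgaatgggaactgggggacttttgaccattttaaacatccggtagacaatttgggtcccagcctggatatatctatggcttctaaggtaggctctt
C8b (chr4:104766067-104766316, plus strand): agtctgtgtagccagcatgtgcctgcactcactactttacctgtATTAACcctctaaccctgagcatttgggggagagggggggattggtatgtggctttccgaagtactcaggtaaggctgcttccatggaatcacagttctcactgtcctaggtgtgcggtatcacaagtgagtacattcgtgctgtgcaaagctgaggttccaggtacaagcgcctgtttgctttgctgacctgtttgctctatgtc
C9 (chr15:6445096-6445345, plus strand): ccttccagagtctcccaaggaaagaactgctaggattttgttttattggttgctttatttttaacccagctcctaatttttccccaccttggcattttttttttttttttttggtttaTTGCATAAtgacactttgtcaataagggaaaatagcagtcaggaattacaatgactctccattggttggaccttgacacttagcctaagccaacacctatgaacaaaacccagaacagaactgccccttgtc
In C8a the capitals mark a match to the STAT letters TTCNNNGAA and one to GTTAAT, the core letters bound by HNF1, a liver transcription factor. In C8b they mark GTTAAT on the other strand, and in C9 a match to the C/EBP letters TTGCNNAA. No motif was found in all 3.

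Liver is the main source of factor VII, which starts coagulation with tissue factor, and of factor X, which it activates. Both genes were higher on the restricted diet, and they are neighbours on chromosome 8 with no protein-coding gene between them. F10 rose by 0.52 ± 0.09 (1.43-fold, adjusted p = 6.63e-07) and F7 by 0.44 ± 0.08 (1.36-fold, 2.35e-06), and each had a positive difference in all 6 strains. F10 was 13.21, 13.77 and 14.03 in CBA/J controls and 14.37, 14.62 and 15.01 in restricted CBA/J mice, which do not overlap. Its difference there was 0.94 ± 0.21 (adjusted p = 0.000175).

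In B6C3F1/J the F10 signals were 11.46, 13.79 and 14.04 in controls against 14.00, 14.19 and 14.66 in restricted mice, so that nearly all restricted mice lay above the controls. The difference was 0.76 ± 0.21 (adjusted p = 0.0183), and 0.46 ± 0.12 (0.0106) without control replicate 2, and it did not pass when the covariate was added (0.0958). In DBA/2J F10 was at 0.32 ± 0.21 (0.389), and at 0.65 ± 0.12 (6.08e-05) without the array of high median. F7 in this cross was 9.42, 11.92 and 12.09 against 11.97, 12.28 and 12.58, a difference of 0.71 ± 0.19 (adjusted p = 0.0134). Without control replicate 2 the F7 value was 0.40 ± 0.14 and no longer passed (adjusted p = 0.0783). In C57BL6/J, F7 was at 0.59 ± 0.19 (adjusted p = 0.0597) and F10 at 0.49 ± 0.21 (0.25), which did not pass. A further F10 probe set rose by 0.51 ± 0.06 (adjusted p = 5.24e-12), and the third was at 0.24 ± 0.13 (0.208).

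The other vitamin K-dependent factors were not called on average, with F2, prothrombin, at 0.11 and F9, factor IX, at -0.06. Pros1, which encodes protein S, a cofactor that helps activated protein C shut down coagulation, rose by 0.29 ± 0.06 (1.22-fold, adjusted p = 7.94e-05). Its difference was positive in all 6 strains, from 0.17 in C57BL6/J to 0.46 in C3H/HeJ, and no single strain passed. Without control replicate 2 the lowest was B6C3F1/J at 0.05 in place of 0.26. In C3H/HeJ the signals were 9.922, 9.996 and 10.466 in controls and 10.19, 10.46 and 11.28 in restricted mice, with overlapping ranges (0.46 ± 0.15, adjusted p = 0.0927). Proc, protein C itself, at 0.02, Serpinc1, antithrombin, at 0.14 and Serpind1, heparin cofactor II, at 0.14 were not called on average.

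The fibrinogen chains, which thrombin turns into fibrin, were called higher in restricted CBA/J mice, and each had a called interaction of strain and diet. Fgg, the gamma chain, was 15.90, 16.07 and 16.27 in CBA/J controls and 17.05, 17.88 and 18.02 in restricted mice, a difference of 1.61 ± 0.18 (3.05-fold, adjusted p = 2.87e-12). Fgb, the beta chain, was 15.91, 16.08 and 16.31 against 16.91, 17.61 and 17.78 (1.42 ± 0.17, adjusted p = 7.84e-11). Fga, the alpha chain, was 15.996, 16.113 and 16.265 against 17.04, 17.47 and 17.69 (1.31 ± 0.18, adjusted p = 4.06e-09). For each chain every restricted CBA/J mouse lay above every control.

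In the other inbred strains the fibrinogen differences lay between -0.14 and 0.22, and none was called. Without the array of high median those of DBA/2J were 0.34 for Fga (adjusted p = 0.0779), 0.36 for Fgb (0.0702) and 0.34 for Fgg (0.176). In B6C3F1/J Fgb was at 0.55 ± 0.17 (adjusted p = 0.0437) and no longer called without control replicate 2 (0.31 ± 0.13, adjusted p = 0.186). Kng1, kininogen, and Apoh, beta2-glycoprotein I, had the same pattern, at 1.19 ± 0.15 (2.28-fold, adjusted p = 3.89e-10) and 1.21 ± 0.14 (2.32-fold, 5.22e-12) in CBA/J. The mean of both Kng1 probe sets was at 0.52 in CBA/J (0.00209), and its interaction did not pass (0.21). Kng1 there was 15.51, 15.59 and 15.78 in controls and 16.39, 16.85 and 17.18 in restricted mice, and Apoh was 15.98, 16.04 and 16.18 against 16.81, 17.37 and 17.61. These are the genes with the smallest p in the interaction test, at an adjusted p of 1.93e-08 for Apoh, 1.17e-07 for Fgg, 7.55e-06 for Kng1, 7.66e-06 for Fgb and 3.71e-05 for Fga.

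The CBA/J differences of these 5 genes depended on the scaling of the arrays. With 75th percentile centring all 5 stayed called. Fgg was at 1.47 (adjusted p = 1.26e-07), Fgb at 1.28 (2.83e-06) and Fga at 1.17 (3.55e-05). Apoh was at 1.07 (7.23e-07) and Kng1 at 1.05 (5.86e-06). With the array median as a covariate the CBA/J median of the whole set was 1.18, in place of 0.54. Under quantile normalization none of the 5 was called. Fgg was then at 0.16 (adjusted p = 0.0551), Fgb at 0.05 (0.686) and Kng1 at 0.06 (0.581). Fga was at -0.04 (0.79) and Apoh at -0.07 (0.535). The array medians and hepatocyte markers given above were also higher in restricted CBA/J mice. Albumin, the most familiar product of hepatocytes, was 1.95 higher on the log2 scale in restricted CBA/J mice, transthyretin 1.91, Apoa1 1.51, Cps1 1.66, Tdo2 1.15 and Apob 1.13. The part of the array scale in the CBA/J values was not tested beyond these alternatives.

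The fibrinogen genes stand side by side on chromosome 3 in the order Fgg, Fga, Fgb with no protein-coding gene between them. Their signals had the highest within-group correlations of the 12 pairs, with r = 0.97 for Fga and Fgb, 0.95 for Fgb and Fgg and 0.92 for Fga and Fgg (rho = 0.93, 0.94 and 0.90; permutation adjusted p = 1.71e-05 for each). Leaving out the 2 farthest arrays gave 0.94, 0.95 and 0.92. Their upstream sequences are shown as a cluster whose members move together, with the same window, source and capitals as above.
Fga (chr3:83025903-83026152, plus strand): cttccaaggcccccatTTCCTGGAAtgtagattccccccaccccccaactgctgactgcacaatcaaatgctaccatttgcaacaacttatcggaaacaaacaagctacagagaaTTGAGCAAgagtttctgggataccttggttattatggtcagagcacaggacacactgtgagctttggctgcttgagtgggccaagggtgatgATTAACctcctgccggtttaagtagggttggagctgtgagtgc
Fgb (chr3:83049864-83050113, minus strand): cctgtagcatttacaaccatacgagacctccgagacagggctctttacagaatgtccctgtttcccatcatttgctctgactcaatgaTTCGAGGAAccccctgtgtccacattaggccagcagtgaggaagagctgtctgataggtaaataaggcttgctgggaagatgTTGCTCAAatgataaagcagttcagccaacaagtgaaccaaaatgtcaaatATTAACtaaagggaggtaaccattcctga
Fgg (chr3:83007474-83007723, plus strand): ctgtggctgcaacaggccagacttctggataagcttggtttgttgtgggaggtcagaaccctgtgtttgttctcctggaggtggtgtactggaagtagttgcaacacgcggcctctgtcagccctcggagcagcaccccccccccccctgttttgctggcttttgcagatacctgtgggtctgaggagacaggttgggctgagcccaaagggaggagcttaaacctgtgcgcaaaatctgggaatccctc
In both Fga and Fgb the capitals mark, from left to right, a STAT match, a C/EBP match and GTTAAT on the other strand. Fgg held none of these letters in this window.

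Windows of this kind were used for 34 of the 44 genes, 36 windows in all. Any window on chromosome 18, where Proc lies, was left out of this set but not of all windows. Of 34 windows that could be compared with the gene table, 15 overlap the gene as that table bounds it. The motifs were searched in all 36, and the letters were counted on both strands beside all 32851 windows of the same length. GTTAAT was in 7 of 36 (19.4%) and in 6.43% of all. TTGCNNAA was in 9 (25.0%) against 9.56%, and TTCNNNGAA in 6 (16.7%) against 7.02%. The full palindromic HNF1 motif, which contains GTTAAT, and the HNF4 letters CAAAGTCCA were in 0 of 36, against 0.00913% and 0.384%. These matches describe letters only and were not tied to the diet differences by any test.

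Strain by strain, the genes called on the restricted diet differed in number and direction. In 129S1/SvImJ Mbl1 alone was called, lower (background 5.26%, with 2.47% lower and 2.79% higher). In C57BL6/J 6 of 41 were lower, namely C1qb, C6, C8a, C8b, C9 and Mbl1, and 0 higher (2 with an unadjusted p under 0.05 by limma), against 1.85% lower and 1.86% higher among all genes (3.71% in all). In DBA/2J 7 were lower, namely C2, C8a, C8b, C9, Mbl1, F11 and Serpinf2, and 0 higher (2 unadjusted), against 4.45% lower and 2.3% higher (6.75% in all). In B6C3F1/J F7, F10 and Fgb were higher, against 3.35%, and 0 lower (0 unadjusted), against 1.26% (4.6% in all). In C3H/HeJ limma called 0 (background 1.95%, with 1.1% higher and 0.85% lower), though 5 had an unadjusted p under 0.05, and its 2 smallest p belonged to Pros1 and to C8a at -0.52 ± 0.22 (adjusted p = 0.331).

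CBA/J stood apart, with 24 higher and 2 lower (Mbl1 and C1s1), against 25.1% higher and 15.6% lower among all genes. The median of the 41 genes there was 0.54 against 0.31 for all genes. Under quantile normalization 6 were higher and 5 lower, with a median of 0.06 against 0.07, and with 75th percentile centring 15 were higher and 2 lower. With the array median as a covariate 35 were higher and 0 lower (1 with an unadjusted p under 0.05 by limma), with a median of 1.18 against 0.14. In C57BL6/J the quantile counts were 4 higher and 5 lower. Without the 2 arrays of high median B6C3F1/J had 1 higher and 2 lower, and DBA/2J 2 higher and 8 lower.

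Of the 26 genes called in CBA/J, 15 were not called on average. The complement inhibitors Cfi (factor I), Serping1 (C1 inhibitor) and Vtn (vitronectin) stood at 0.15, 0.11 and 0.25 on average and at 0.73, 0.94 and 1.12 in CBA/J. Under quantile normalization none of the 3 was called there (0.002, 0.17 and 0.13), and the mean of both Vtn probe sets was at 0.38 (adjusted p = 0.246). Plg, plasminogen, was at 0.09 on average and 1.17 ± 0.22 in CBA/J (adjusted p = 1.34e-05), Ahsg, fetuin-A, at 0.24 and 1.43 ± 0.27 (7.11e-06), and F5 at 0.19 and 0.98 ± 0.22 (0.000205). Under quantile normalization Plg was at 0.036 (0.864) and Ahsg at 0.29 (0.224), and the mean of both F5 probe sets was at 0.12 (0.66). Serpinc1 was at 1.002 ± 0.18 in CBA/J (adjusted p = 2.54e-06) and turned to -0.20 (0.0381) under quantile normalization. C4bp (C4b-binding protein, -0.11), Klkb1 (prekallikrein, -0.16) and F13b (the B subunit of factor XIII, -0.07) were called neither on average over all arrays nor in CBA/J, and F12 (factor XII, 0.05) in CBA/J alone (0.57 ± 0.21, adjusted p = 0.0221; 0.204 with 75th percentile centring).

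In DBA/2J F11, factor XI of the contact system, was 11.32, 11.81 and 12.19 in controls and 6.49, 11.34 and 11.61 in restricted mice, with replicate 6 as the low one. Its difference of -1.05 ± 0.29 (adjusted p = 0.0134) became -0.44 ± 0.15 (0.0425) without that array, and did not pass when the covariate was added (0.0578). Serpinf2, alpha2-antiplasmin, an inhibitor of plasmin, fell by 0.67 ± 0.21 there (adjusted p = 0.0294; -0.46, 0.0104 without that array). The Serpinf2 call ended with 75th percentile centring (0.0719) and with the covariate (0.125). C2 fell by 0.71 ± 0.19 (0.00971; -0.50, 0.0306 without that array), but the mean of its 3 probe sets was at -0.33 (0.277). C5ar1 was called in CBA/J at 2.22 ± 0.72 (adjusted p = 0.00984), but its mean signal was 3.58 in controls and 5.80 in restricted mice, below the array medians on both sides, and the call ended under quantile normalization (0.092), with no filter (0.166) and with the covariate (0.172).

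Across strains the diet difference varied for 24 of the 41 genes (58.5%, against 23.9% of all genes in the F test of the interaction). With quantile normalization the number was 11 and with 75th percentile centring 15, while it was 31 without the 2 arrays of high median and 33 with the covariate. Without CBA/J limma called 0 (9 with an unadjusted p under 0.05), and without CBA/J and the 2 arrays of high median 5.

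**Figure D4:**
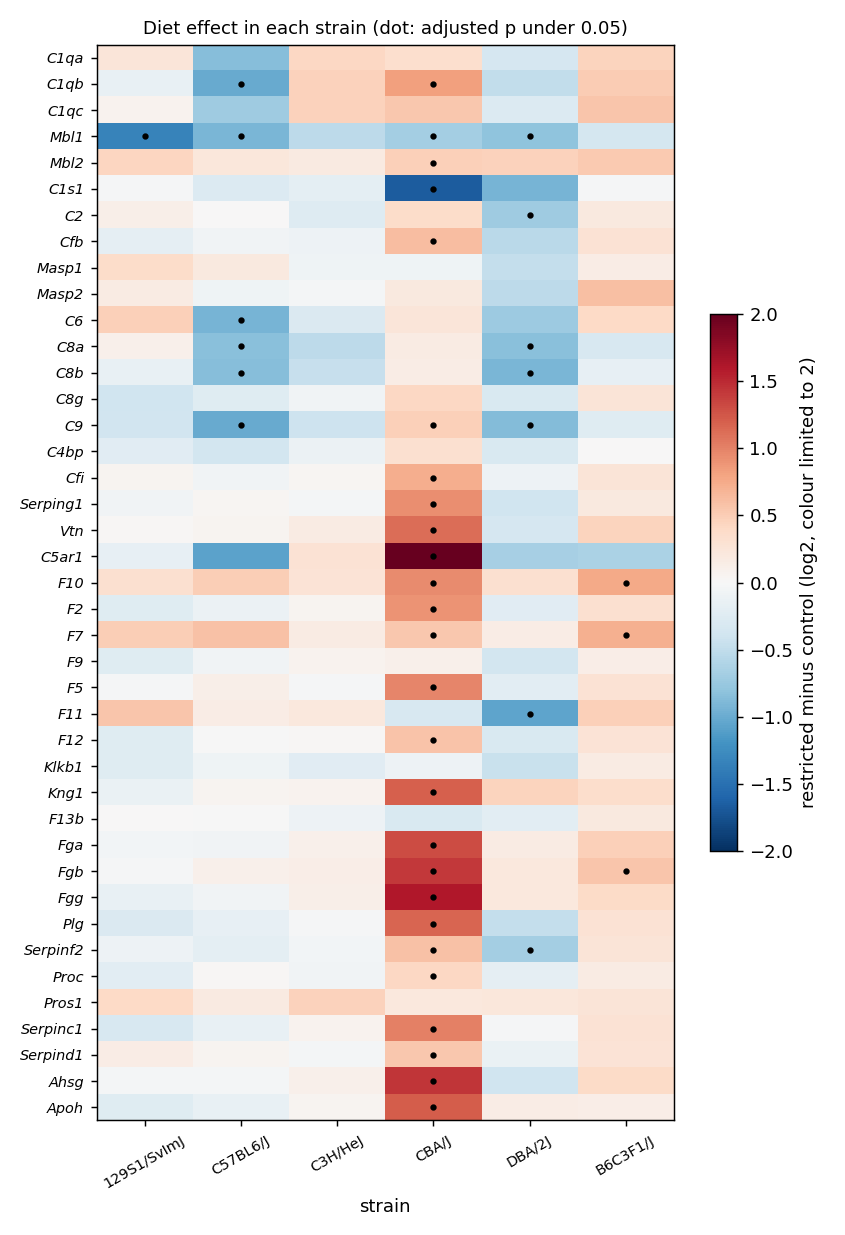
Difference between restricted and control livers in each strain (columns) for the 41 genes (vertical axis), as a colour from blue (lower on the restricted diet) to red (higher), log2 scale limited to 2; a dot marks an adjusted p under 0.05. The CBA/J column is mostly red, with 24 genes called higher that became 6 under quantile normalization, while C57BL6/J and DBA/2J show blue for C8a, C8b and C9.

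C1q, the molecule that recognises antibody and starts the classical pathway, is built from the products of C1qa, C1qb and C1qc, which are adjacent on chromosome 4. On average none of the 3 was called for diet (0.04, 0.02 and 0.11). In C57BL6/J controls C1qb was 9.89, 11.18 and 12.02 and in restricted mice 9.49, 10.09 and 11.38, with wide overlap. The difference was -1.004 ± 0.28 (2.01-fold, adjusted p = 0.0235), which did not pass under quantile normalization (0.152) or 75th percentile centring (0.106). In CBA/J C1qb was at 0.82 ± 0.28 (adjusted p = 0.0162), but the mean of its 3 probe sets was at -0.14 (0.627).

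The C1q chains and the macrophage markers were set side by side as group means, and their correlation was not tested. C1qa was at -1.04 in 129S1/SvImJ controls against the other 5 strains, which is not the control group with the lowest markers. The 12 Kupffer cell and macrophage markers, all of them measured, had their highest mean in C57BL6/J controls, at 9.88 ± 0.56 (SD, n = 8), against 9.31 ± 0.45 in restricted C57BL6/J mice and 8.63 ± 0.27 in CBA/J controls, the lowest group. Over all arrays C57BL6/J controls also had the highest C1qa, C1qb and C1qc, at 11.28, 11.18 and 11.21. Without the array of high median the C1qa mean of restricted DBA/2J mice was 11.42 (n = 7), above that of C57BL6/J controls. The C1q chains correlated within groups at r = 0.88 for C1qa and C1qb and 0.86 for both other pairs (rho = 0.82, 0.86 and 0.79; permutation adjusted p = 1.71e-05), and at 0.83 to 0.88 without the 2 farthest arrays. The part of the number of macrophages in these values was not tested.

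**Figure D5:**
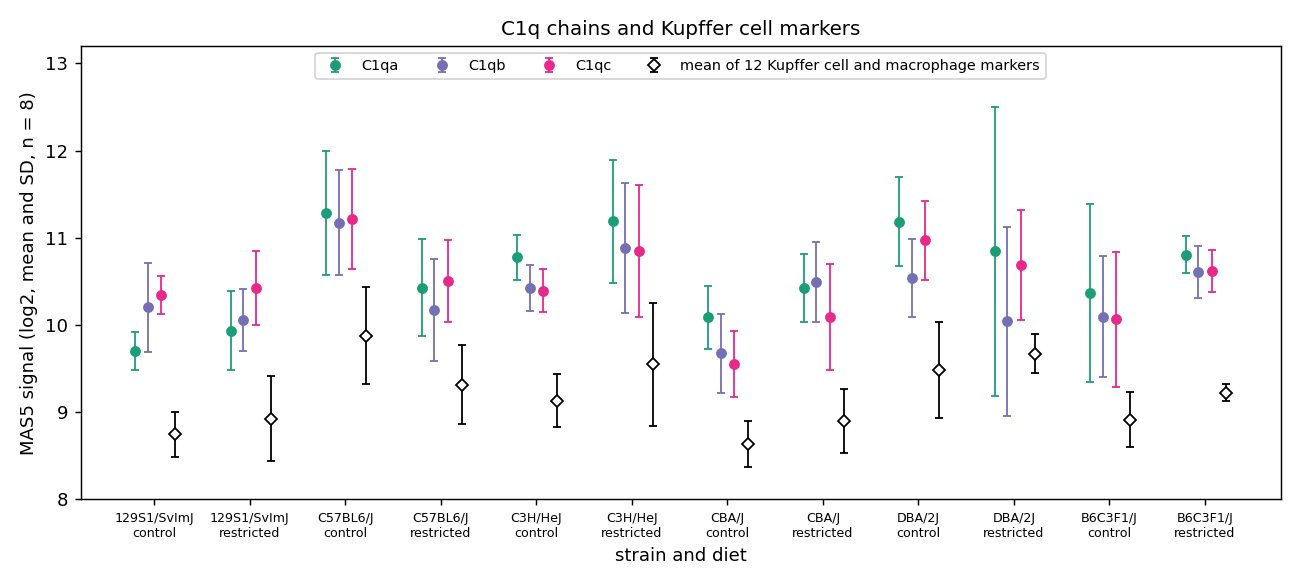
Mean and SD (n = 8 mice) of the MAS5 signal (log2, vertical axis) of C1qa, C1qb and C1qc in the 12 groups, with the mean of 12 Kupffer cell and macrophage markers as open diamonds. Both are highest in C57BL6/J controls, where the diamonds stand at 9.88, and lowest in CBA/J controls for C1qb, C1qc and the markers. Without the array of high median the C1qa mean of restricted DBA/2J mice is 11.42 (n = 7), above that of C57BL6/J controls.

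The levels differed between strains for nearly all of the genes. On the control diet 38 of the 41 genes differed between the 6 strains (92.7%, against 43.6% of all genes), and on the restricted diet, in other mice, 36 did (87.8%, against 66.3%). F9, Masp2 and C1s1 were the 3 that did not pass on the control diet, though a second Masp2 probe set did (adjusted p = 6.84e-12), as did the mean of both (0.00203). Without CBA/J the numbers were 34 and 30. The 8 genes with the smallest p were C9 (adjusted p = 1.60e-13), C8b (3.45e-08), C1qc (1.51e-07), Apoh (8.78e-07), C8a (9.72e-07), Pros1 (1.90e-06), Fga (5.43e-06) and Fgg (6.97e-06).

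C9 was highest in DBA/2J controls, with a mean of 15.67 ± 0.25 (SD, n = 8), followed by CBA/J at 14.54 ± 0.12, C3H/HeJ at 14.45 ± 0.35, 129S1/SvImJ at 14.15 ± 0.36, C57BL6/J at 14.02 ± 0.31 and B6C3F1/J at 13.86 ± 0.73. DBA/2J differed from every other strain, by 1.13 from CBA/J (adjusted p = 3.55e-06) up to 1.81 from the cross (8.25e-13). Without control replicate 2 the cross averaged 14.11 ± 0.19 (n = 7) and stood above C57BL6/J, which was then the farthest from DBA/2J, at 1.65 (1.54e-15). No neighbours below DBA/2J in either order differed beyond their spread. Against the mean of the other 5 strains DBA/2J stood 1.47 ± 0.15 higher (adjusted p = 6.94e-14), and 1.42 without the arrays of high median.

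C8b, C8a and C6 were also highest in DBA/2J controls. C8b was 13.35, 13.46 and 13.97 there, 1.01 ± 0.16 above the other 5 (adjusted p = 5.5e-07), and lowest in B6C3F1/J, at 9.85, 12.20 and 12.54. C8a was 14.99, 15.16 and 15.35 in DBA/2J, 0.87 ± 0.17 above (adjusted p = 0.000107), though the difference from C3H/HeJ did not pass (0.27; 0.0473 without the arrays of high median). C6 was 1.03 ± 0.21 above (adjusted p = 0.000204). In all, 14 of the 41 genes were higher in DBA/2J than in the other 5 strains (34.1%, against 7.25% of all genes) and F5, factor V, was lower at -0.65 ± 0.17 (adjusted p = 0.00389; background 7.36%). Under quantile normalization the counts were 7 higher and 3 lower, without the 2 arrays 20 and 1, and with the covariate 26 and 1.

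C57BL6/J controls were the low strain, with 19 genes lower (46.3%, against 7.59% of all genes) and 4 higher (9.76%, against 8.68%). The counts were 10 lower and 7 higher under quantile normalization and 11 and 3 with 75th percentile centring, but 24 and 6 without the 2 arrays and 24 and 3 with the covariate. The 4 higher ones were the C1q chains and Pros1. The mean level of the 6 hepatocyte markers was also lowest of the control groups in C57BL6/J, at 15.75, against 16.07 in CBA/J up to 16.58 in 129S1/SvImJ. The part of a general difference in hepatocyte transcripts in these counts was not tested. Fga was 15.21, 15.37 and 15.73 in C57BL6/J controls, all below the lowest mouse of the other inbred control groups, and stood 0.82 ± 0.14 below the other 5 strains (adjusted p = 3.79e-06; -0.38, 6.23e-05 under quantile normalization). Apoh was 0.63 ± 0.11 below (2.49e-06), which ended under quantile normalization (-0.09, 0.424) and with the mean of its probe sets (-0.27, 0.196). Fgg was 0.72 ± 0.14 below (3.42e-05; -0.22, 0.00151 under quantile normalization).

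Pros1 was highest in C57BL6/J controls, at 10.40, 10.53 and 10.78, and exceeded every other control group, by 0.47 from C3H/HeJ (adjusted p = 0.0213) up to 0.89 from the cross (4.48e-06; 0.68, 1.2e-05 without control replicate 2). The other 5 groups had means from 9.64 to 10.07, or from 9.70 without that array, and neighbours in that order did not differ beyond their spread. C1qc was highest in C57BL6/J at 9.99, 11.26 and 12.04 and its difference from DBA/2J did not pass (adjusted p = 0.589), and it was lowest in CBA/J at 8.98, 9.48 and 10.07. Apoh was highest in 129S1/SvImJ at 16.20, 16.45 and 16.78, without passing against DBA/2J (0.183).

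In 129S1/SvImJ 8 genes were higher and 4 lower than in the other 5 strains (background 6.17% and 6.57%), which became 2 and 4 under quantile normalization and 1 and 3 with 75th percentile centring, but 13 and 6 without the 2 arrays and 18 and 3 with the covariate. Mbl2 was lower there by 0.62 ± 0.14 (adjusted p = 0.000394). C3H/HeJ had 3 higher and 1 lower (5.83% and 4.18%; 8 and 2 under quantile normalization, 6 and 3 without the 2 arrays, 1 and 5 with the covariate), with C2 at 0.76 ± 0.15 (adjusted p = 0.000125). CBA/J had 3 higher and 3 lower (5.52% and 6.59%; 5 and 9 without the 2 arrays, 2 and 9 with the covariate). B6C3F1/J had 9 lower and 0 higher (7.67% and 3.48%; limma, 0 higher unadjusted), which became 4 lower and 1 higher without control replicate 2.

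Compared with the mean of its parents, B6C3F1/J differed in 7 genes on the control diet (17.1%, against 8.94% of all genes, 2.72% higher and 6.22% lower) and 6 on the restricted diet (14.6%, against 9.35%, 3.71% higher and 5.64% lower). Of the 7, 1 was higher and 6 lower, and of the 6, 5 were higher and 1 lower. Pros1 was lower both times, by 0.66 (adjusted p = 0.000359; -0.45, 0.00363 without control replicate 2) and by 0.72 (6.41e-05). The median of the cross lay below those of both parents, with overlap with C3H/HeJ, at restricted signals of 9.61, 9.93 and 10.25 against 10.36, 10.76 and 10.82 in C57BL6/J and 10.19, 10.46 and 11.28 in C3H/HeJ. On the control diet C8a was at -0.83 (adjusted p = 0.00288) and C8b at -0.65 (0.0112), and without control replicate 2 these were -0.40 (0.0354) and -0.35 (0.0581). On the restricted diet Fga was at 0.69 (adjusted p = 0.00143) and Apoh at 0.52 (0.00137), which under quantile normalization were 0.20 (0.15) and -0.01 (0.955), with 0 genes higher and 5 lower. Without the 2 arrays of high median 16 genes were called on the control diet, 13 higher and 3 lower, against 4.04% and 4.1% of all genes. On the restricted diet 18 were called, 16 higher and 2 lower, against 8.05% and 8.72%.

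Other genes of the pathways, from a list of 66 with 47 measured, were higher in 7 cases and lower in 3 on average. Among all genes 15.2% were higher and 12.4% lower, so neither share of the list lay above the background. Hpx, hemopexin, a haem-binding plasma protein, rose by 0.35 ± 0.06 (adjusted p = 6.3e-06), Clu, clusterin, an inhibitor of the terminal complex, by 0.34 ± 0.09 (0.00149), and Itih4, an inter-alpha-trypsin inhibitor heavy chain, by 0.33 ± 0.09 (0.00227). Cr1l, which encodes the complement inhibitor Crry, rose by 0.23 ± 0.05 (9.96e-05). C1ra, the partner protease of C1s in the C1 complex, fell by 0.31 ± 0.07 (0.000365). The median of the 47 was 0.14, against 0.07 for all genes.

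Between strains Hc, which encodes complement C5, the precursor of the C5a fragment and of the pore's first component, was low in DBA/2J, a strain known for C5 deficiency. Control signals there ran from 11.89 to 13.02, against means of 13.74 to 14.18 in the other control groups, a difference of -1.58 ± 0.16 (adjusted p = 3.27e-13). Cd59a, a membrane inhibitor of the same pore, was low in 129S1/SvImJ, from 10.40 to 11.34 against means of 12.20 to 12.52 (-1.53 ± 0.12, adjusted p = 3.64e-20). Ggcx, the carboxylase that modifies vitamin K-dependent factors, was 0.99 ± 0.19 higher in 129S1/SvImJ (2.34e-05) and 1.04 ± 0.19 below in DBA/2J (1.31e-05). Itih3 was 0.66 ± 0.13 higher in 129S1/SvImJ (4.13e-05), and Cfhr3 was at -1.04 ± 0.22 in CBA/J (0.000319). None of these 5 was called for diet on average.

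Of 17 transcription factors and signalling genes listed as regulators of plasma protein genes, 16 were measured, with 1 higher and 3 lower on the restricted diet. The background was 15.2% higher and 12.4% lower among all genes. Foxa3, a liver forkhead factor, fell by 1.06 ± 0.08 (adjusted p = 7.07e-22), Onecut1 by 0.92 ± 0.19 (6.02e-05) and the bile acid receptor Nr1h4 by 0.19 ± 0.06 (0.0112). Nr0b2, a repressor that Nr1h4 induces, rose by 0.44 ± 0.13 (0.00606).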

How the data were processed

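Liver RNA of 96 mice was measured on single-colour Affymetrix arrays with 1 mouse per array. The authors deposited linear intensity values from MAS5, per the submitters' processing notes. The MAS5 version and the array design's genome build were not given in the sources used here. Tests used log2 of these deposited values. A probe set was kept when it was at or above the array median in at least 8 arrays, which left 32999 of 45101. By the platform annotation 34958 probe sets named 1 gene, 932 named more and 9211 had no symbol. Promoters and neighbouring genes come from RefSeq tables of GRCm38.p6.

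A mean was fitted for each of 12 groups of 8 mice with limma 3.58.1 in R 4.3.3 (eBayes with trend and robust variances), with p-values adjusted by Benjamini-Hochberg over 14816 genes. Each strain on the control diet was set against the mean of the other 5, and all 15 pairs were tested. Correlations were tested by two-sided permutation within groups with 100000 resamples in Python 3.11.15 (numpy 2.4.6). Fits were tested on simulated data. The number of arrays limits the precision.

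All genes of the set could be named. Full values went to the 12 with the smallest p among those called in the averaged diet comparison, 6 in the interaction, 8 between control strains, 2 for diet in each strain and 3 against the parents. C1s1, C1qb, C2, C6, C5ar1, F5, F11, F12, Plg, Ahsg, Serpinc1 and Serpinf2 were described beyond that after their values were seen. The genes and lists were chosen with earlier results of these data known. Replicate numbers did not pair the mice, as the deviations of same-numbered mice correlated at -0.171 to 0.14. Alternatives were quantile normalization, 75th percentile centring, an offset of 8.55 before log2, no filter or a stricter one (48 arrays), averaging all probe sets per gene, other probe sets, eBayes without trend and robust variances, a replicate block, the array median as a covariate, and leaving out CBA/J or the 2 arrays with a median log2 above 8. Leaving out both together was added after the data were seen.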

Additional observations from a re-analysis of the deposited data

Results flagged for a closer look

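In 30 of 168 groups of 8 mice (14 genes, 17.9%) the highest or lowest mouse stood apart by Dixon's test, which flags about 1 in 20 groups by chance. B6C3F1/J control replicate 2 gave 13 of the 30 and was the lowest of its group each time, at 10.91 for Mbl1, 11.46 for F10, 9.42 for F7, 14.10 for Fgb, 13.78 for Kng1, 12.13 for Mbl2, 12.10 for C9, 14.61 for Fgg, 8.17 for Pros1, 9.85 for C8b, 14.13 for Fga, 10.71 for C8a and 8.27 for C1qc. DBA/2J restricted replicate 6 was the lowest in 5, at 11.69 for F10, 11.11 for F7, 10.87 for C8b, 15.38 for Fga and 9.26 for C1qc. These are the 2 arrays of high median. C57BL6/J restricted replicate 2 stood apart in 4, high for Mbl1 (14.08), Mbl2 (15.22) and C8b (12.25) and low for Pros1 (10.36). C3H/HeJ restricted replicate 4 was high for Pros1 (11.28) and C1qc (12.57). The remaining ones were F7 at 11.65 in 129S1/SvImJ restricted replicate 5, Fgb at 15.81 in C57BL6/J control replicate 2, Kng1 at 15.78 in CBA/J control replicate 2, C8a at 14.92 in CBA/J control replicate 8, C9 at 13.29 in C57BL6/J control replicate 4 and C1qc at 9.99 in C57BL6/J control replicate 1.

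The diet difference varied between strains for 24 genes by the interaction F test. The adjusted p was 1.93e-08 for Apoh, 1.17e-07 for Fgg, 7.55e-06 for Kng1, 7.66e-06 for Fgb, 3.71e-05 for Fga, 0.000107 for C9, 0.000273 for Serpinc1, 0.000285 for Plg, 0.00107 for C1qb, 0.00149 for Ahsg, 0.00296 for F2 and 0.00613 for C6. It was 0.00933 for C8b, 0.0108 for C1qc, 0.0109 for F11, 0.0114 for Serpinf2 and Vtn, 0.0131 for C2, 0.0141 for Cfi, 0.0192 for Serping1, 0.0202 for C8a, 0.0251 for F5, 0.0304 for C1s1 and 0.0373 for C8g. Without CBA/J limma called 0 (9 with an unadjusted p under 0.05).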

How the results depend on the processing

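The number of genes called changed with the scaling of the arrays, with CBA/J and with the 2 arrays of high median. Shares of all genes under each setting are not given in this section, so changes across all genes are not set apart. The averaged counts of 9 higher and 5 lower genes became 15 and 8 without the 2 arrays of high median, 17 higher with the array median as a covariate, 4 higher without CBA/J, 5 and 10 without both, and 10 lower under quantile normalization. By strain, quantile normalization gave 1 higher in 129S1/SvImJ, 4 higher in C57BL6/J, 1 lower in C3H/HeJ, 6 higher and 5 lower in CBA/J, 11 lower in DBA/2J and 1 lower in B6C3F1/J. With 75th percentile centring 1 was lower in C57BL6/J and 15 higher in CBA/J. With the median as a covariate the counts were 2 higher in 129S1/SvImJ, 1 higher in C57BL6/J and in C3H/HeJ, 0 lower in CBA/J, 4 higher and 4 lower in DBA/2J, and 0 higher and 1 lower in B6C3F1/J. Without the 2 arrays they were 4 higher and 2 lower in 129S1/SvImJ, 2 higher in C57BL6/J, 1 higher and 2 lower in C3H/HeJ, 2 higher in DBA/2J, and 1 higher and 2 lower in B6C3F1/J. The stricter filter gave 1 higher in C57BL6/J and in DBA/2J. The interaction count of 24 became 11 (quantile), 15 (75th percentile), 0 without CBA/J and 5 without CBA/J and the 2 arrays. The counts against the parents became 16 on the control diet and 18 on the restricted diet without the 2 arrays, with or without CBA/J, and 17 on the restricted diet with the covariate. The within-group correlation of C9 with Vtn over 96 arrays was r = 0.119 (permutation adjusted p = 0.32; -0.12 without the 2 farthest arrays) and 0.389 after 75th percentile centring (0.0273; 0.13 without them).

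The averaged sign of 18 genes turned in at least 1 alternative. Where the value was called on either side, these were Proc at -0.087 (quantile) and -0.097 (without CBA/J and the 2 arrays) on average, and Apoh at -0.042, -0.009 (without CBA/J) and -0.011. In CBA/J called values that turned were C9 at -0.031, Mbl2 at -0.015, Fga at -0.039, Serpinc1 at -0.197 and Apoh at -0.068 under quantile normalization, and C1qb at -0.139 with the mean of probe sets. Between control strains they were Fga at -0.040, Fgb at -0.055 and Fgg at -0.014 in 129S1/SvImJ and Serpinc1 at 0.167 in C57BL6/J (quantile), and Masp1 at -0.005 in C3H/HeJ (mean of probe sets). Against the parents they were Apoh at -0.033 (control diet, mean of probe sets) and, under quantile normalization on the restricted diet, Fgb at -0.143, Serpinc1 at -0.025 and Apoh at -0.011. With the replicate number as a block the count in C57BL6/J was 1 higher in place of 0, and no other count moved by over 1.5 times. The cause of these changes was not tested.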
